A study of Homo sapiens with 14 samples.

Results

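The BCL2 family genes followed here are 10 genes whose proteins decide whether a cell keeps or loses the barrier of its mitochondria: BCL2, BCL2L1, BCL2L2, MCL1, BCL2A1, BAK1, BID, BAD, BCL2L11 and BMF. They were picked by name, and every array probe whose transcript accession belongs to one of them in RefSeq was taken, which gave 16 probes among 50599 on the array, where 20992 genes could be named. The arrays measured RNA of A172 and U87-MG, both established human glioblastoma cell lines, 40 h after transfection per the labels (the methods give another time) with an siRNA against the long noncoding RNA LINC00152 or with a control siRNA. There were 3 arrays for each siRNA in A172 and 4 in U87-MG, and replicate numbers tie each knockdown array to 1 control array. Nothing in the labels beyond these numbers describes how the cultures were separated, so p-values measure the spread between these samples.

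In this family, BCL2, BCL2L1, BCL2L2, MCL1 and BCL2A1 hold the mitochondrial outer membrane closed and keep cells alive. BAK1 opens pores in that membrane, which releases cytochrome c and starts the caspases. BID, BAD, BCL2L11 and BMF carry only the BH3 stretch of the family, report damage or lost growth signals, and act by binding the survival proteins or by activating pore formers. Glioblastoma cells commonly depend on the survival members, in particular BCL2L1 and MCL1.

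A level is given here as the log2 of the scanner's background-subtracted signal minus the log2 of the 75th percentile of its own array, so 1 unit is a doubling and a negative level lies below that percentile. Levels of different probes cannot be set against each other. The 6 A172 arrays lay on 3 slides, each holding 1 pair, and the 8 U87-MG arrays shared 1 other slide, so a difference in level between the lines cannot be told apart from the slide. The scanner marked 57.3% to 69.0% of each A172 array's non-control spots as well above background, and 35.7% to 48.3% on U87-MG arrays. The lowest share belonged to U87-MG control replicate 3, which also correlated least with arrays of other numbers in its line (median r = 0.876 across probes). Its knockdown partner followed, with 40.4% and 0.929, against 0.961 to 0.965 for the other U87-MG arrays. U87-MG values that moved by over 1.5 times when this pair was left out are given below with and without it.

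The knockdown target was read first. The labels give no number for the siRNA against it. Of the 2 listed by the study, #1 is the one named for a qPCR check of the knockdown in both lines, so its sequence is shown.
siLINC00152 #1: tgcctgtcttcagatcttcacagca
The LINC00152 probe (A_24_P273143, current symbol CYTOR) had levels of 2.63, 2.44 and 2.48 in A172 controls and 0.23, -0.42 and -0.10 after knockdown. In U87-MG the levels were 1.94, 1.83, 1.71 and 1.82 in controls and -1.21, -0.88, -0.74 and -0.79 after knockdown. The groups did not overlap in either line, and 16.3% and 15.1% of the control signal was left (adjusted p = 0.000731 and 4.96e-05, limma). The labels of all 14 arrays therefore match their target.

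The lines were also read for their labelled origin. Each gene was counted by its probe that was most often well above background. Of 7 glial and glioma genes, VIM, NES and CD44 passed on every array. SOX2 passed on 6 of 6 A172 and 0 of 8 U87-MG arrays, and OLIG2 on 6 of 6 and 3 of 8. Of the astrocyte markers, GFAP passed on 1 of 6 and 0 of 8, and S100B on no array. Markers of other cell types passed too. Of 4 epithelial genes, KRT14 passed on every array, KRT5 on 5 of 6 and 1 of 8, EPCAM on 1 of 6 and 0 of 8, and CDH1 on none. The endothelial genes CDH5 and VWF and the blood cell genes PTPRC and CD14 passed on every array, PECAM1 on 6 of 6 and 0 of 8, and CD3E on 6 of 6 and 6 of 8. This flag alone therefore does not separate lineages. Of 19 tested marker probes in A172, 2 of the keratin KRT14 rose without a block, by 3.35 and 3.36, more than any tested family probe changed. With the replicate pair as a block both were called again (adjusted p = 0.0142 and 0.0157), and 1 of CD44 fell by 1.13 (adjusted p = 0.00807). In U87-MG 0 of 12 were called. The part of these shifts in the results below was not tested.

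Testing a probe in a line required 3 or more arrays of either group with the probe well above background. Called means a false discovery rate under 0.2 together with a log2 fold change of over 0.5 in size. Of the 16 probes, 14 were tested in A172 and 12 in U87-MG. A probe for BCL2 (A_23_P352266) and a probe for BCL2A1 (A_23_P152002) were not well above background on any of the 14 arrays, and both genes were read through their other probe. All 10 genes were thus tested in both lines by at least 1 probe.

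Without the pairs in the model, limma called 0 of 14 probes in A172 and 0 of 12 in U87-MG, where 0.184% and 0.0502% of all tested probes were called. At an unadjusted p under 0.05 there were 3 of 14 and 0 of 12, beside 2.28% and 2.31% of all tested probes. Arrays of 1 number mostly deviated together from their group means, least clearly in U87-MG pair 1, so the replicate pair was also fitted as a block. Then 3 of 14 were called in A172 against 3.26% of all tested probes, and 0 of 12 in U87-MG against 4.2%. The 3 calls were 1 of a higher level (BCL2L11, background 1.09%) and 2 of a lower level (BCL2L1 and BMF, background 2.17%). Of these 3, BCL2L11 and BMF met the rule on arrays above background only through the group in which they were higher, so their calls are not independent of that rule and are given as a description. Among the 12 A172 probes that met it in both groups, 1 was called (BCL2L1), beside 2.9% of all 25932 such probes. At an unadjusted p under 0.05 the block gave 7 of 14 and 3 of 12, beside 10.7% and 16.9% of all tested probes. The A172 counts at this p, 3 without and 7 with the block, both include the BCL2L11 and BMF probes named above. These 2 counts are therefore not independent of the rule on arrays above background either. With the slide as the block, which equals the pair in A172 and leaves U87-MG unpaired, 0 of 14 and 0 of 12 were called beside 0.342% and 0.105% of all tested probes, and the values within each A172 slide are the pair differences given below. The tested family probes had a median log2 fold change of 0.05 in A172 and 0.17 in U87-MG, beside 0.02 and -0.02 over all tested probes, and a median absolute change of 0.31 and 0.21 beside 0.14 and 0.17. Several of these probes share a gene, so they are not independent.

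**Figure D1:**
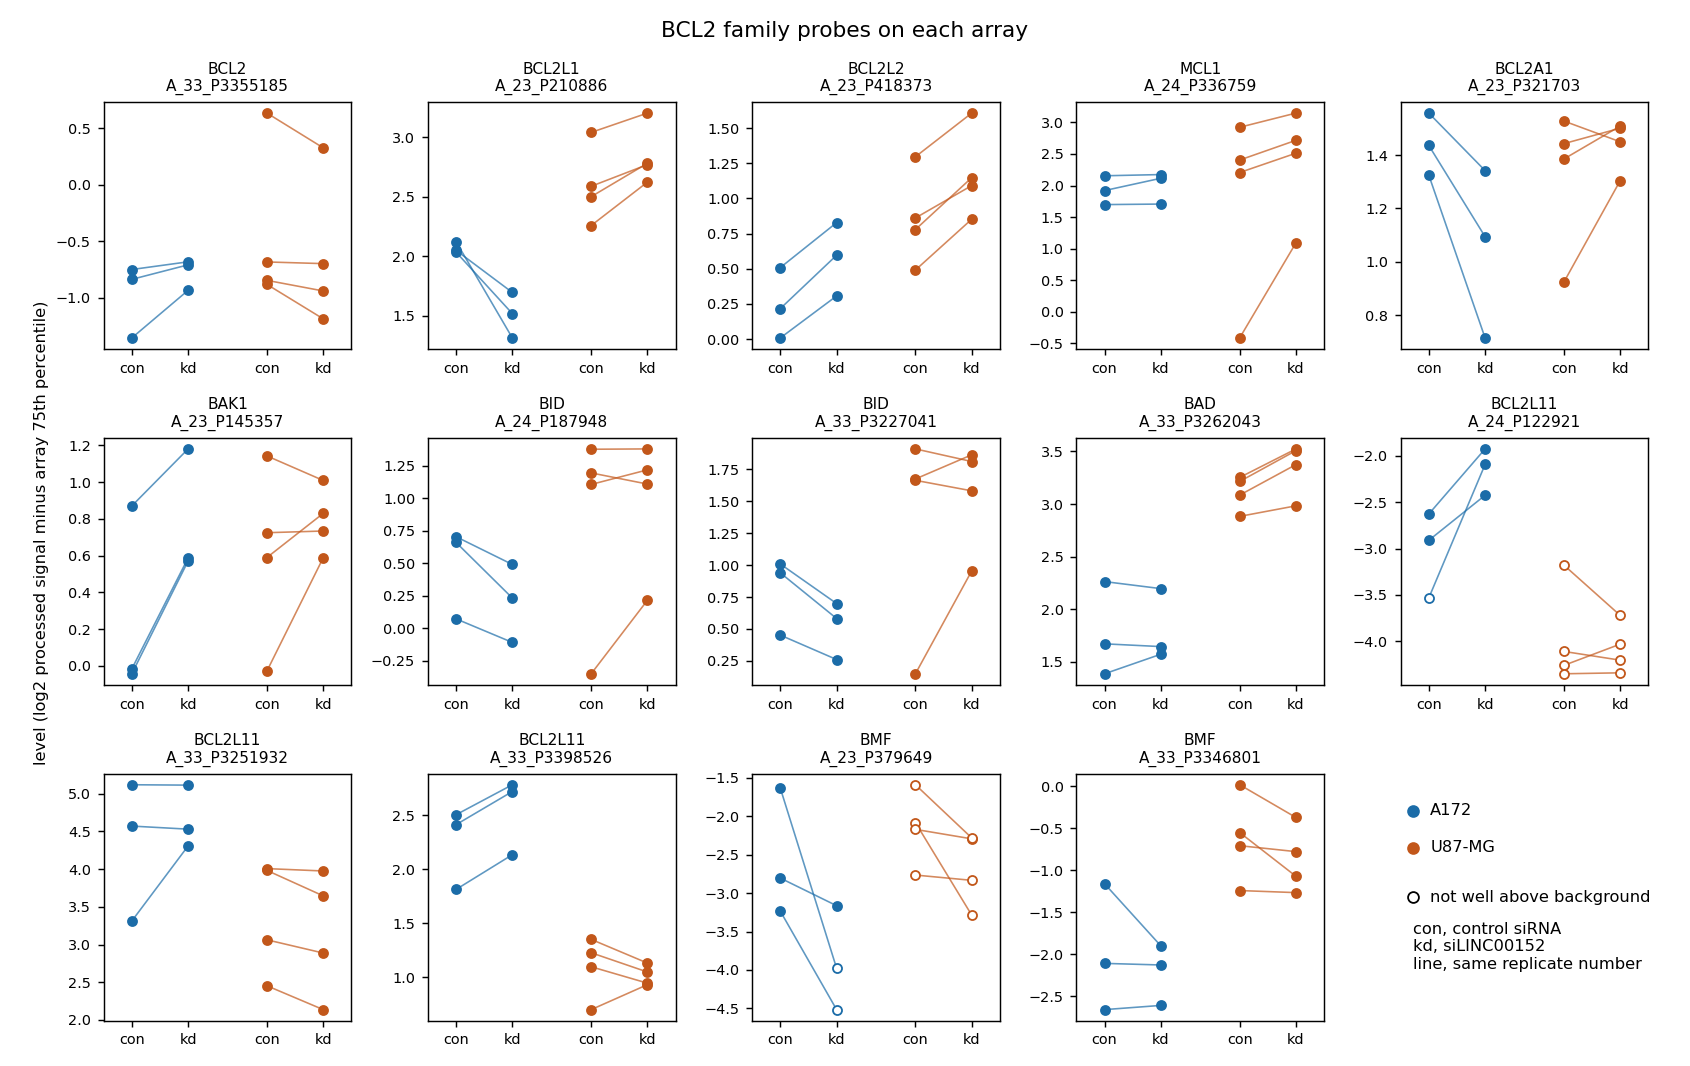
Level of each tested BCL2 family probe on every array (log2 processed signal minus the array's 75th percentile), control siRNA (con) and siLINC00152 (kd), with lines joining arrays of 1 replicate number and open circles for arrays where the probe was not well above background. The 3 A172 knockdown arrays lie below the 3 controls for BCL2L1, and U87-MG replicate 3 lies far below the others for MCL1 and BID.

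Among the survival genes, BCL2L1, which encodes BCL-XL and its short death-promoting splice form, was called in A172 with the block. Its probe (A_23_P210886) had levels of 2.03, 2.05 and 2.12 in A172 controls and 1.52, 1.69 and 1.31 after knockdown. All 3 knockdown arrays lay below all 3 controls. The fold change was -0.56 (SE 0.26, adjusted p = 1.00) without a block and passed the test with it (SE 0.13, adjusted p = 0.117), which leaves 67.8% of the control signal. Less RNA per cell and fewer cells carrying it cannot be told apart in such bulk RNA. The probe is printed 10 times on the array, and its spots differed within an array by an SD of 0.03 to 0.10, a spread that holds no difference between cultures.

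In U87-MG the BCL2L1 levels were 2.26, 2.50, 3.04 and 2.59 in controls and 2.62, 2.78, 3.20 and 2.77 after knockdown. The groups overlapped, but the knockdown array was the higher one in 4 of 4 pairs, by 0.16 to 0.37. That change of 0.25 did not pass the test with the block (SE 0.11, adjusted p = 0.310), and ran from 0.13 to 0.40 with 1 array or pair left out. Such ranges, here and below, are from fits without a block. The difference between the lines, A172 minus U87-MG, was -0.81 (SE 0.17) and missed the threshold as well with the block (adjusted p = 0.249). It passed with the pair as a random effect (adjusted p = 0.0866) and, beside the block, with normexp correction (-0.78, adjusted p = 0.00799) and with eBayes trend and robust settings (adjusted p = 0.0486), where 1.03%, 2.19% and 1.6% of all tested probes were called. Beside the block it did not pass with quantile normalization, the deposited values or no filter on dim probes (adjusted p = 0.261, 0.279 and 0.455). It did not pass in any fit that left out 1 pair. Of the family probes tested in both lines, 0 of 12 had a called line difference without a block and 0 of 12 with it, where 0.00945% and 0.421% of all tested probes were called.

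The call for BCL2L1 in A172 was lost when any A172 pair was left out. Leaving out A172 pair 1, 2 or 3 gave fold changes of -0.58, -0.66 and -0.44 with the block and adjusted p of 0.363, 0.301 and 0.560. Calls among all tested A172 probes fell in these fits too, from 924 to 339, 331 and 228. BCL2L1 was called with normexp background correction (-0.53), with quantile normalization (-0.59) and with the deposited log2 values (-0.59). The call was lost with no filter on dim probes (adjusted p = 0.287 with the block).

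BCL2 itself, the founding survival gene, was read by a probe (A_33_P3355185) at -1.36, -0.84 and -0.75 in A172 controls and -0.93, -0.71 and -0.68 after knockdown. In U87-MG it was at -0.88, -0.85, 0.63 and -0.68 in controls and -1.19, -0.94, 0.33 and -0.70 after knockdown. The groups overlapped in both lines and replicate 3 was high on both of its U87-MG arrays. Knockdown was higher in 3 of 3 A172 pairs and lower in 4 of 4 U87-MG pairs, with fold changes of 0.21 and -0.18 that did not pass (adjusted p = 0.729 and 0.434 with the block). With 1 array or pair left out the A172 value ran from 0.019 to 0.32, and without U87-MG control replicate 3 the U87-MG value became 0.18.

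BCL2L2, which encodes the survival protein BCL-W, had levels of 0.51, 0.01 and 0.22 in A172 controls and 0.83, 0.31 and 0.60 after knockdown. In U87-MG they were 0.78, 0.86, 0.49 and 1.30 in controls and 1.15, 1.09, 0.85 and 1.61 after knockdown. Groups overlapped, yet all 7 pairs were higher after knockdown, by 0.23 to 0.38. The fold changes of 0.33 and 0.32 (SE 0.11 and 0.09 with the block) stayed under the fold threshold, and the adjusted p was 0.265 in A172 and 0.170 in U87-MG. With 1 array or pair left out, the A172 value ran from 0.21 to 0.47 and the U87-MG value from 0.17 to 0.46.

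MCL1, a short-lived survival protein, was at 1.92, 1.70 and 2.15 in A172 controls and 2.11, 1.71 and 2.17 after knockdown, a change of 0.07. In U87-MG its levels were 2.21, 2.40, -0.42 and 2.92 in controls and 2.51, 2.72, 1.09 and 3.15 after knockdown. Both arrays of U87-MG replicate 3 stood far below the rest, and the pair differences were 0.31, 0.31, 1.51 and 0.23. The U87-MG change of 0.59 did not pass (SE 0.21, adjusted p = 0.231 with the block). It was 0.28 without both arrays of replicate 3, and -0.14 without its control alone.

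BCL2A1, a survival gene that NF-kB is known to switch on, was lower in 3 of 3 A172 pairs, with levels of 1.32, 1.56 and 1.44 in controls and 0.71, 1.34 and 1.09 after knockdown. The groups overlapped by 1 array. The change of -0.39 (SE 0.14) did not pass with the block (adjusted p = 0.324) and ran from -0.54 to -0.22 with 1 array or pair left out. In U87-MG it was 0.12 with 3 of 4 pairs higher, and 0.034 without pair 3.

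BAK1, the pore former, had levels of -0.02, 0.87 and -0.04 in A172 controls and 0.59, 1.18 and 0.57 after knockdown. Each knockdown array exceeded its own control, and the groups overlapped, with replicate 2 high on both of its arrays. The change of 0.51 (SE 0.16) did not pass with the block (adjusted p = 0.267), and ran from 0.31 to 0.81 with 1 array or pair left out. It passed with the pair as a random effect (adjusted p = 0.184), where 4.34% of all tested A172 probes were called. Beside the block it also passed with eBayes trend and robust settings (adjusted p = 0.145), with each line fitted by itself (0.154) and without U87-MG pair 3 (0.154). The share of all tested A172 probes called was 3.75%, 5.69% and 5.02% in these fits, beside 3.26% with the block. Without a block the adjusted p was 1.00. In U87-MG the change was 0.18, with 3 of 4 pairs higher, and 0.29 without pair 3.

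BCL2L11 encodes BIM, which binds all survival members, and 3 probes read it. A_24_P122921 is annotated to one RefSeq transcript, and A_33_P3251932 and A_33_P3398526 to another. A_24_P122921 had levels of -2.91, -2.63 and -3.53 in A172 controls and -2.43, -1.93 and -2.09 after knockdown, and was well above background on 2 of 3 controls and on 3 of 3 knockdown arrays. The groups did not overlap. The change of 0.88 was called with the block (SE 0.21, adjusted p = 0.141) and not without it (SE 0.34, adjusted p = 1.00). The call was lost without A172 pair 1, 2 or 3 (changes of 1.07, 0.96 and 0.59, adjusted p = 0.258, 0.412 and 0.582 with the block) and without U87-MG pair 1 or 4, which share in the estimate of the spread (adjusted p = 0.220 and 0.209). With the block it was also lost with normexp correction, where the change shrank to 0.25 (adjusted p = 0.106), with quantile normalization (0.79, adjusted p = 0.221), with the deposited values (0.84, adjusted p = 0.227), with eBayes trend and robust settings (adjusted p = 0.248) and with no filter on dim probes (adjusted p = 0.276). The probe was tested through its knockdown arrays alone, so the call gives no support of its own for a change. In U87-MG the probe was well above background on 0 of 8 arrays and has no fold there.

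The other BIM probes were not called in A172 with the block. A_33_P3398526 was higher in 3 of 3 A172 pairs by 0.28 to 0.32 (change 0.30, SE 0.13, adjusted p = 0.450 with the block), and its change ran from 0.087 to 0.51 with 1 array or pair left out. A_33_P3251932 was at 3.31, 5.12 and 4.57 in A172 controls and 4.31, 5.11 and 4.53 after knockdown, so its change of 0.32 came from replicate 1, and was -0.02 without that pair. In U87-MG these probes had changes of -0.08 and -0.22 that did not pass the test, and the first was -0.033 without pair 3.

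BMF, which links lost attachment to cell death, was read by A_23_P379649 and A_33_P3346801. A_23_P379649 had levels of -3.23, -1.63 and -2.80 in A172 controls and -4.52, -3.98 and -3.16 after knockdown, well above background on 3 of 3 controls and 1 of 3 knockdown arrays. The groups overlapped between control replicate 1 and knockdown replicate 3. It was lower in 3 of 3 pairs, by -1.28, -2.35 and -0.36, and its change of -1.33 was called with the block (SE 0.36, adjusted p = 0.189) but not without it (SE 0.46, adjusted p = 1.00). The call was lost without A172 pair 1 or 2 (changes of -1.35 and -0.82, adjusted p = 0.531 and 0.671 with the block) and without U87-MG pair 1, 2 or 4 (adjusted p = 0.217, 0.248 and 0.242). With the block it was also lost with normexp correction, where the change shrank to -0.28 (adjusted p = 0.224), with quantile normalization (-1.23, adjusted p = 0.242), with the deposited values (-1.31, adjusted p = 0.254) and with no filter on dim probes (adjusted p = 0.317). The probe was tested through its control arrays alone and lay mostly in the background after knockdown, so neither the call nor the exact fold supports a change. The other probe, A_33_P3346801, had pair differences of 0.05, -0.74 and -0.02, a change of -0.24 (adjusted p = 0.851 with the block). In U87-MG the first probe was well above background on 0 of 8 arrays. There A_33_P3346801 was lower in 4 of 4 pairs, by -0.07, -0.52, -0.39 and -0.02, and its change of -0.25 did not pass (SE 0.16, adjusted p = 0.447 with the block). With 1 array or pair left out it ran from -0.46 to -0.039.

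BID, which caspase-8 cleaves to join death receptors to mitochondria, was lower in 3 of 3 A172 pairs with both of its probes. A_24_P187948 had levels of 0.70, 0.66 and 0.07 in controls and 0.49, 0.23 and -0.11 after knockdown. The changes of -0.27 and -0.29 did not pass (adjusted p = 0.646 and 0.750 with the block). With 1 array or pair left out they ran from -0.48 to -0.12 and from -0.46 to -0.16. In U87-MG they were 0.15 and 0.20, became -0.25 and -0.20 without control replicate 3, and were 0.0097 and 0.0027 without pair 3. BAD, which growth factor kinases inactivate, was at 1.39, 2.26 and 1.67 in A172 controls and 1.57, 2.20 and 1.64 after knockdown, a change of 0.03. In U87-MG it was higher in 4 of 4 pairs by 0.10 to 0.29 (change 0.24, adjusted p = 0.282 with the block), and the change ran from 0.16 to 0.36 with 1 array or pair left out.

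**Figure D2:**
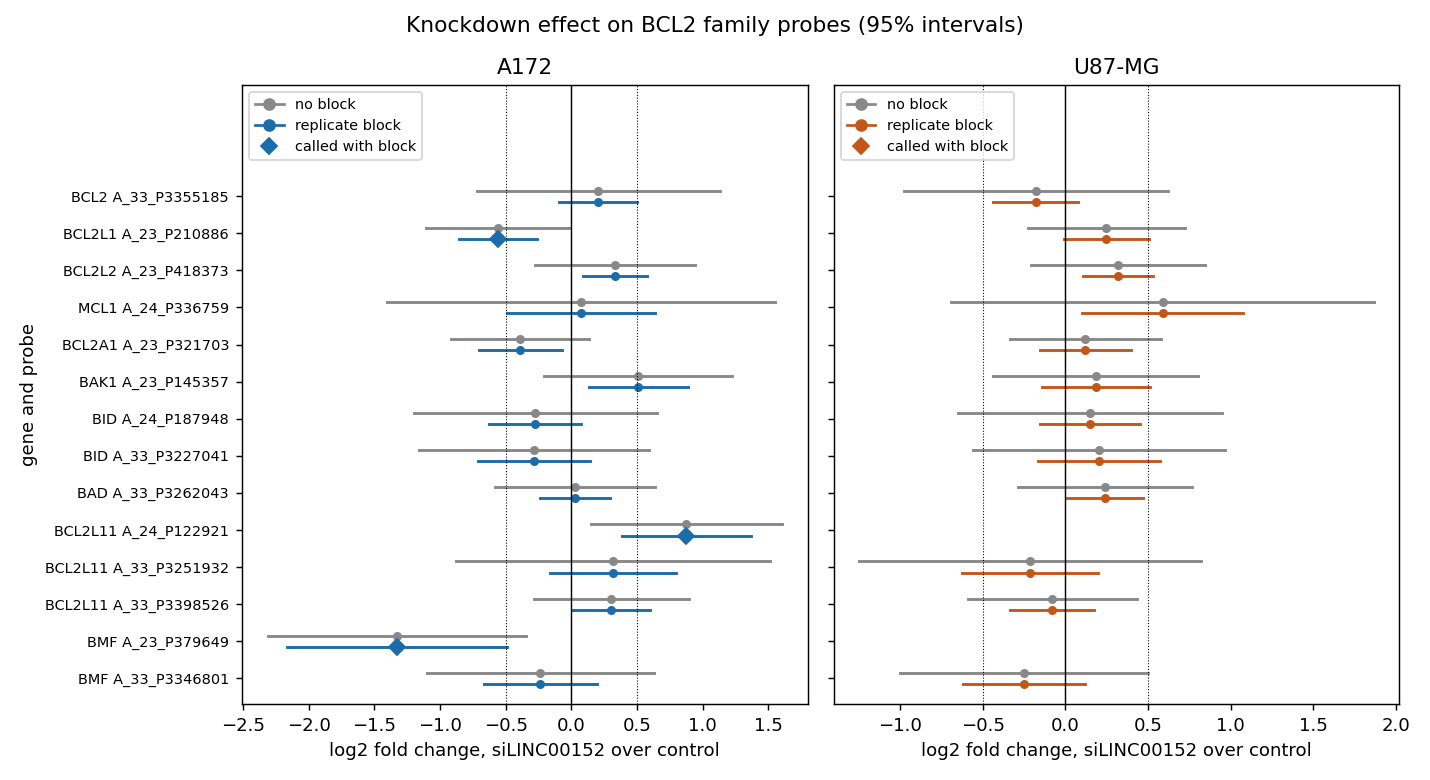
Log2 fold change of siLINC00152 over control for each tested family probe with its 95% interval, without a block (grey) and with the replicate pair as a block (coloured), where dotted lines mark the 0.5 threshold and diamonds the probes called with the block. The intervals narrow with the block, and the 3 diamonds are BCL2L1 at -0.56, BCL2L11 A_24_P122921 at 0.88 and BMF A_23_P379649 at -1.33 in A172.

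Agreement among pairs was described over all tested probes as well. In A172, 11 of 14 family probes had the same sign in every pair, beside 36.4% of 28320 probes, and in 2 of 14 the groups did not overlap, beside 7.08%. The 11 include BCL2L11 A_24_P122921 and BMF A_23_P379649, and the 2 include that BCL2L11 probe. Both probes were tested through their higher group alone, so these A172 counts are not independent of the rule on arrays above background. In U87-MG, 7 of 12 had the same sign in every pair, beside 30.5% of 21890 probes, and in 0 of 12 the groups did not overlap, beside 2.79%. The signs went both ways, with 8 of 14 tested probes higher on average in A172, beside 54.3% of all tested probes, and 8 of 12 in U87-MG, beside 47.4%.

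**Figure D3:**
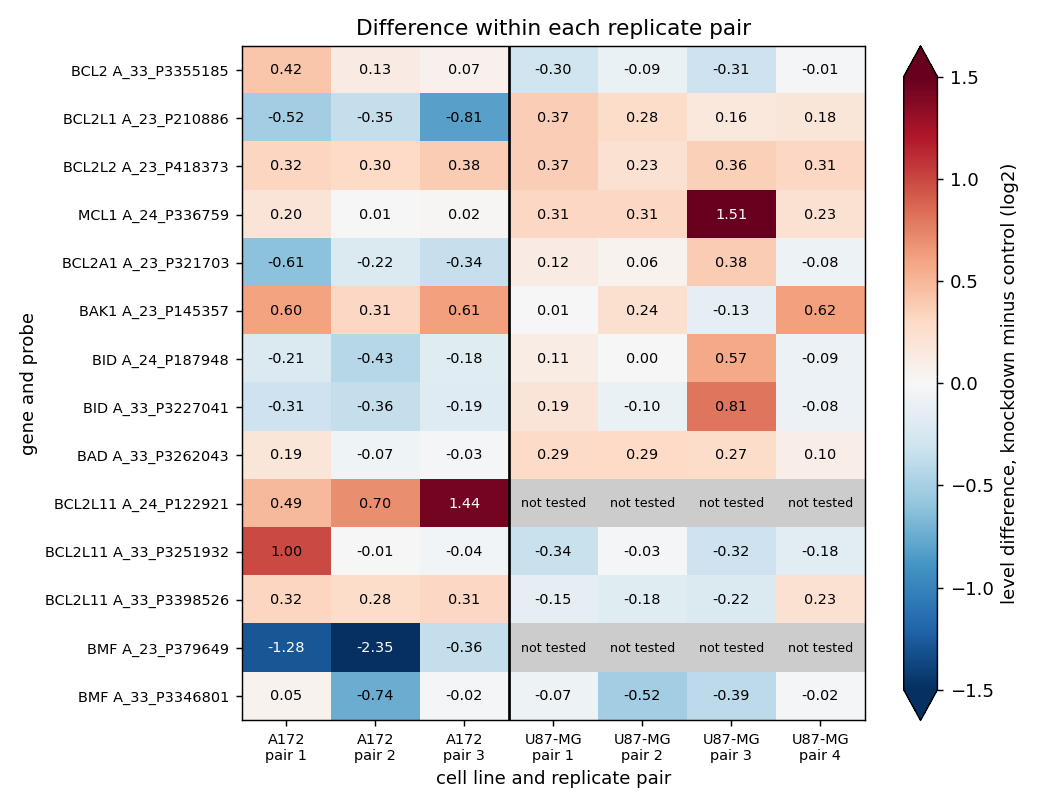
Difference in level within each replicate pair, knockdown minus control on the log2 scale, for the tested family probes in 3 A172 and 4 U87-MG pairs. BCL2L1 is negative in all A172 pairs and positive in all U87-MG pairs, BCL2L2 is positive in all 7, and U87-MG pair 3 stands out for MCL1 at 1.51.

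The promoters of the 3 genes called with the block are shown from RefSeq on GRCh38.p14, as windows of 300 bases that end shortly after the transcription start, since these members were called on the same arrays. The table held a window for 8 of the 10 genes, 15 windows in all, and the window listed first is shown. Capitals mark matches, on either strand, to a STAT-type motif (TTCNNNGAA), a forkhead-type motif (TGTTTAC) or a GC box (GGGCGG).
BCL2L1 promoter, chr20:31723914-31724213, - strand: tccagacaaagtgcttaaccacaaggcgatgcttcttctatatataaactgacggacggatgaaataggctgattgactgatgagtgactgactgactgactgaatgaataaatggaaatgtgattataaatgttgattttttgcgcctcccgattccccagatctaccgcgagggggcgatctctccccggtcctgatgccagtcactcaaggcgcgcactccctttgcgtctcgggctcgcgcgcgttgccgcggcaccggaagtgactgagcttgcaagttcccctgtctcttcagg
BCL2L11 promoter, chr2:111120664-111120963, + strand: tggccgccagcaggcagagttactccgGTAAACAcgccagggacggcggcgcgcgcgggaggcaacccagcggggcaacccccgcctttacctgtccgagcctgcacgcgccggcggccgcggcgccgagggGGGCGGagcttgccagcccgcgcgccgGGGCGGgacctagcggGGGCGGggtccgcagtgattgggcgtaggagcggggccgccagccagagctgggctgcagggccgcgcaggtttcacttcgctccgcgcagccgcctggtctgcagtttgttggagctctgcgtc
BMF promoter, chr15:40108830-40109129, - strand: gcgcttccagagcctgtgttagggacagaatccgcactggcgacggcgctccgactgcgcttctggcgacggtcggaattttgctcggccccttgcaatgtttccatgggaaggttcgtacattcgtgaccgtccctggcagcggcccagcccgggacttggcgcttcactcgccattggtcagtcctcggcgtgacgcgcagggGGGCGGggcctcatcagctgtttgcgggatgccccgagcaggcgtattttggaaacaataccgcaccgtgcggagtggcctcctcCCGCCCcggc
The BCL2L11 window held 1 forkhead-type match, at bases 28 to 34 of the window, and 3 GC boxes. The BMF window held 2 GC boxes and the BCL2L1 window shown none of these letters. Over all windows of each gene, 1 of 2 for BCL2L1 and 1 of 2 for BMF held a GC box. Over all 35116 promoters, 7.66% held the STAT-type motif, 3.42% the forkhead-type motif and 45.0% the GC box. A match describes letters and no binding was measured here.

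Genes around the family were read from a list of 59 apoptosis genes with 91 probes, of which 72 were tested in A172 and 61 in U87-MG. Without a block 0 of 72 and 0 of 61 were called, and at an unadjusted p under 0.05 there were 4 and 3, beside 2.28% and 2.31% of all tested probes. With the block 4 of 72 were called in A172 (background 3.26%), 0 higher (background 1.09%) and 4 lower (background 2.17%), and 8 of 61 in U87-MG, 5 higher (background 2.12%) and 3 lower (background 2.08%). Of these calls, 1 in each line met the rule on arrays above background only through its control group, and among the probes that met it in both groups 3 of 69 and 7 of 57 were called, beside 2.9% and 3.27% of all such probes. TNFRSF10B, a receptor for the death ligand TRAIL, had levels of 2.94, 3.07 and 2.61 in A172 controls and 1.36, 1.03 and 0.82 after knockdown. The groups did not overlap, and the fall of -1.80 (SE 0.20) left 28.7% of the control signal (adjusted p = 0.00977 with the block). In U87-MG TNFRSF10B fell by 0.63 (adjusted p = 0.151 with the block), with replicate 3 at 0.32 and 0.33 on its 2 arrays and the other pairs lower by -0.74 to -0.90. The U87-MG change was -0.84 without pair 3, and its call was lost when any other pair of either line was left out (adjusted p = 0.202 to 0.347), with each line fitted by itself (0.222) and with no filter on dim probes (0.330).

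YWHAE, a 14-3-3 protein that holds phosphorylated BAD in the cytosol, fell in both lines with the block, by 1.33 in A172 (adjusted p = 0.0215) and by 0.80 in U87-MG (adjusted p = 0.0850). The U87-MG call was lost without U87-MG pair 1, 2 or 4 (adjusted p = 0.265 to 0.278) and with no filter on dim probes (0.223). PMAIP1, the BH3-only protein NOXA that binds MCL1, fell by 1.15 in A172 (adjusted p = 0.0185), and by 0.51 with normexp correction. It was well above background on 3 of 3 controls and 2 of 3 knockdown arrays, so it too was tested through its higher group alone. FADD, the adaptor of death receptors, fell by 0.56 in A172 (adjusted p = 0.130), a call that was lost without A172 pair 1, 2 or 3 (adjusted p = 0.407, 0.452 and 0.547), without U87-MG pair 1 (0.206) and with no filter (0.307).

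In U87-MG the IAP gene BIRC2 rose by 0.75 with the block (adjusted p = 0.166). Its change was 0.44 without pair 3, and it was called in 0 of 7 fits that left out 1 pair (adjusted p = 0.126 to 0.317). The BIRC2 call was also lost with normexp correction (0.36), quantile normalization (adjusted p = 0.202), the deposited values (0.218), each line fitted by itself (0.248) and no filter (0.346). DIABLO, whose protein blocks IAPs, rose by 0.74 (adjusted p = 0.124) and by 0.52 without pair 3. That call was lost without A172 pair 2 or 3 or U87-MG pair 1, 2 or 4 (adjusted p = 0.227 to 0.292), with normexp correction (0.46) and with no filter (adjusted p = 0.286). The channel gene VDAC3 rose by 0.69 (adjusted p = 0.0653) and by 0.56 without pair 3. Its call was lost without U87-MG pair 2 (adjusted p = 0.210). A second DIABLO probe pointed the other way (-0.44, adjusted p = 0.125 with the block). Tests of a line difference called 0 of 59 in the list, beside 0.421% of all tested probes with the block and 0.00945% without it. The number of U87-MG calls with the block was 1 without U87-MG pair 1, 0 without pair 2 and 1 without pair 4, and 4 and 5 without A172 pair 2 or 3. The calls among all tested U87-MG probes, 920 with every pair, were 139, 82, 157, 414 and 441 in these fits.

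**Figure D4:**
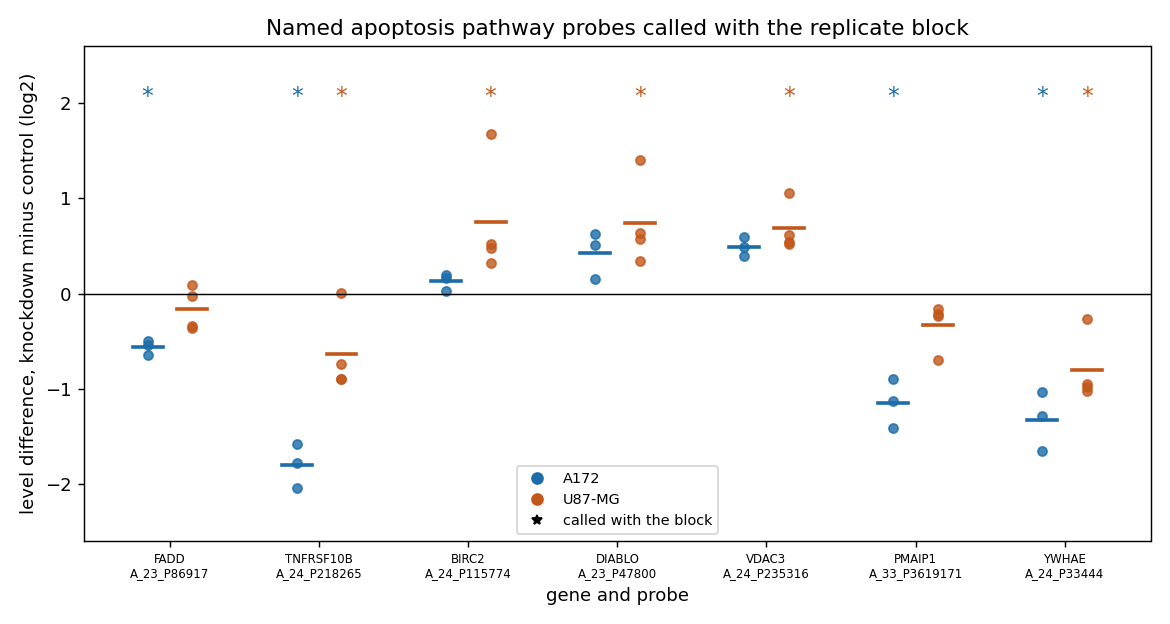
Difference in level within each pair (knockdown minus control, log2) for the named apoptosis pathway probes called with the replicate block, where bars are means over 3 A172 or 4 U87-MG pairs and stars mark the line in which the probe was called. TNFRSF10B, YWHAE, PMAIP1 and FADD lie below 0 in every A172 pair. U87-MG pair 3 lies above the other pairs for BIRC2, DIABLO, VDAC3, TNFRSF10B and YWHAE.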

How the data were processed

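The 14 one-colour Agilent arrays carried RNA of A172 and U87-MG cells. Per the file headers, Feature Extraction 11.5.1.1 gave the background-corrected intensity of each spot, and hg19 is the build behind the array annotation. The authors also deposited log2 values normalized between arrays, whose exact scaling is not given in the sources used here, and these served as an alternative. The scanner flags of saturation, outliers and background were used as given.

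Here log2 processed signals were reduced by the 75th percentile of each array over 58717 non-control spots, outlier spots were left out and spots of a probe averaged, counting a probe as well above background when at least 0.5 of its spots were. limma 3.58.1 in R 4.3.3 (lmFit, eBayes) fitted 4 group means to all arrays, with Benjamini-Hochberg adjustment within each line over 28337 and 21919 probes. Line differences were tested as an interaction over 21163 probes. The mean signal was not used, so normexp (offset 50) took the median signal. The model was run on simulated data to check bias, interval coverage and false calls. No minimum share of recovered changes was required, so this is no check of power. Accessions without version were matched to RefSeq, which named 29033 of 50599 probes.

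The pairing of replicate numbers was checked. Deviations of arrays from the mean of their group correlated at 0.675 to 0.794 within A172 pairs and 0.373 to 0.864 within U87-MG pairs, against -0.701 to -0.0436 and -0.772 to 0.411 between numbers. The U87-MG ranges overlapped. Control replicate 1 there correlated at 0.373 with its own partner and at 0.403 with knockdown replicate 2. Named genes were all 10 family genes, and pathway genes with a probe called in either line with or without the block; called genes withheld for evaluation are in the counts and are not reported here. The members and lists were chosen with earlier results of these data known. The number of arrays limits the precision.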

Additional observations from a re-analysis of the deposited data

Results flagged for a closer look

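Arrays were judged by the gap to the nearest value over the range of the group, against Dixon's 95% limit. Of 24 U87-MG groups of family probe levels, control or knockdown, 3 held an array far from the others, each time control replicate 3. They were BID A_24_P187948 (ratio 0.843, level -0.35 against 1.11 to 1.38), BID A_33_P3227041 (0.860, 0.15 against 1.66 to 1.91) and BCL2 A_33_P3355185 (0.869, 0.63 against -0.88 to -0.68). Chance marks about 1 in 20 groups, and groups of 3 were not examined. BCL2L1 was lower after knockdown in every A172 pair and higher in every U87-MG pair. This difference of -0.81 missed the threshold with the block (adjusted p = 0.249) and passed it with the pair as a random effect (0.0866). Beside the block it passed with normexp (0.00799) and with eBayes trend and robust (0.0486). It did not pass there with quantile normalization (0.261), the deposited values (0.279) or no filter on dim probes (0.455). BCL2 A_33_P3355185 went the opposite way, with a difference of 0.39 (adjusted p = 0.609 with the block). The cause was not tested.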

How the results depend on the processing

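Alternatives with the replicate block other than the block itself, fixed or random, were chosen after seeing the data. Family calls were 0 in both lines without the block under every alternative tried. They became 3 in A172 with the replicate block and 4 with the pair as a random effect, which also gave 1 line difference (BCL2L1). The pathway counts were 4 and 6 in A172 and 8 and 8 in U87-MG under these. With arrays or pairs left out and no block they were 0 to 2 in A172, beside 0.0139% to 0.448% of all tested A172 probes. The 2 came without U87-MG pair 3, where 0.448% of all tested A172 probes were called. The random effect called 4.34% of all tested A172 probes and 5.1% of U87-MG probes, beside 3.26% and 4.2% with the replicate block. With the block, the 3 A172 family calls became 1 with normexp, 1 with quantile normalization, 1 with deposited values, 0 with no filter, 0 at an FDR below 0.05 and 0 with treat, and ran from 0 to 4 with a pair left out: 0, 0 and 1 without A172 pair 1, 2 or 3, and 1 without U87-MG pair 1 or 4. Calls among all A172 probes, 924 with the block, became 636, 757, 679, 589, 270 and 112 under these, and 228 to 1422 with a pair left out. In U87-MG, eBayes with trend and robust called 1 (MCL1), beside 5.84% of all tested probes. Line differences were 1 with normexp and 1 with trend and robust (BCL2L1 in both), beside 2.19% and 1.6% of all tested probes. Pathway calls with the block became 1 in A172 with treat, and in U87-MG 3 with normexp, 1 with no filter, 0 at an FDR below 0.05 and 0 with treat, from 0 to 6 with a pair left out; in A172 they ran from 3 to 6. All U87-MG calls, 920 with the block, became 142, 330, 112 and 22, and 82 to 738 with a pair left out. The cause was not tested.

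Of the uncalled fold changes, 12 turned sign with 1 array or pair left out. Their ranges were -0.16 to 0.28 (BAD) and -0.19 to 0.71 (BCL2L11 A_33_P3251932), -0.58 to 0.17 (BMF A_33_P3346801) and -0.039 to 0.22 (MCL1) in A172. In U87-MG they were -0.52 to 0.13 and -0.21 to 0.0060 (BCL2L11 A_33_P3251932 and A_33_P3398526), -0.25 to 0.40 and -0.20 to 0.40 (BID), -0.50 to 0.18 (BCL2), -0.011 to 0.19 (BCL2A1), -0.14 to 1.01 (MCL1) and -0.029 to 0.36 (BAK1). U87-MG control replicate 3 turned 6 of them. Signals near background limit BMF A_23_P379649 and BCL2L11 A_24_P122921.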
